A study of Mus musculus with 54 samples.

Results

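Retinoids are vitamin A and its derivatives. The liver takes up retinol, stores it as retinyl esters in hepatic stellate cells, and releases it bound to retinol binding protein; retinol is oxidized to retinal and on to retinoic acid, the ligand of the nuclear receptors RAR, and retinoic acid is removed by hydroxylation. The RAR receptors bind DNA together with RXR, which is also the partner of the PPAR receptors.

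Expression of 9 genes of retinoid metabolism was described in liver: Bco1, Lrat, Rdh16, Rdh10, Rdh11, Dhrs3, Aldh1a1, Aldh1a7 and Cyp26a1. They were chosen by gene symbol, for their function, and each was found on 1 of the 20162 rows of the deposited table. The mice were male C57BL/6J mice of wild-type genotype on a high-fat diet, 8 weeks old at the start, and all received a gelatin pellet each day for 20 weeks. The pellet carried di-isononyl phthalate (DINP), a plasticizer, at 1.5 mg/kg bw/d in 13 mice, at 15 mg/kg bw/d in 13 mice and at 150 mg/kg bw/d in 14 mice. The pellet of the 14 control mice was a placebo, so that diet and pellet were shared by all 54 mice. The groups are called low, middle and high dose in what follows. RNA came from the medial lobe and was read from its 3′ ends, with 1 library a mouse.

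The values are TPM, a measure of transcript abundance that divides by transcript length and library total, rounded and then scaled between mice, and the number of reads behind them is unknown. They summed to between 747258 and 1076439 per mouse. Of the 8 hepatocyte markers listed, all were detected, and their summed value ranged from 25310 to 49144 over all mice. Of the 6 lymphocyte markers listed, Cd3e, Cd3g, Cd79a and Ms4a1 had a median of 0 over all mice, and the summed value of the list was 0 to 15.0. Of the 6 adipocyte markers, Adipoq, Plin1, Retn and Lep had a median of 0, while Cfd and Fabp4 were detected, and the median of the sum was 26.5 in control mice and 37.2 at the high dose. In bulk liver, fewer cells of a type and less RNA per cell cannot be told apart.

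All 9 genes were protein coding in GENCODE M21 on GRCm38. Bco1 lay on chr8:117095854-117133720, Lrat on chr3:82892579-82903973, Rdh16 on chr10:127801152-127846565 and Rdh10 on chr1:16105774-16133734. Rdh11 lay on chr12:79174337-79192293, Dhrs3 on chr4:144892827-144928209 and Cyp26a1 on chr19:37697798-37701536. Aldh1a1 (chr19:20492715-20643465) and Aldh1a7 (chr19:20692953-20727562) are neighbours on opposite strands, with 49488 bases between them. Of the 50-base stretches within the last 500 bases of the transcripts, which a 3′ library reads, none of Cyp26a1, Rdh11, Rdh10, Lrat, Dhrs3 or Aldh1a7 was found in a transcript of another gene. For Rdh16, 3.18% were shared with Rdh9, Rdh16f1 or Gm47096, and for Aldh1a1 3.28% were shared with Aldh1a7, so that a small part of their reads could be split between paralogs. For Bco1, 2.91% were found in many other transcripts. C730002L08Rik overlaps Aldh1a1 on the opposite strand and had a mean value of 1.58, and whether the counting used strand is not given in the sources used here. The pseudogene Gm20694, which overlaps Bco1, had a mean value of 0.0533. Rdh18-ps overlaps Rdh16, Rbm46os overlaps Lrat and Gm6684 overlaps Aldh1a1, none with a row of its own in the table under these names.

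Promoter sequences are shown for the 3 members on which the results turn or in which a receptor motif was found. They are the 250 bases before the start site from RefSeq on GRCm38.p6, which held 8 of the 9 members (Rdh10 had no entry). The motif searched was AGGTCA or AGTTCA, followed by 1, 2 or 5 bases and by AGGTCA or AGTTCA, on both strands. Such direct repeats are the textbook binding motif of RXR with PPAR (spacing of 1) and with RAR (spacing of 2 or 5), and the motif was picked with the sequences in view. Capitals mark the repeated units:
Cyp26a1, chr19:37697558-37697807, plus strand: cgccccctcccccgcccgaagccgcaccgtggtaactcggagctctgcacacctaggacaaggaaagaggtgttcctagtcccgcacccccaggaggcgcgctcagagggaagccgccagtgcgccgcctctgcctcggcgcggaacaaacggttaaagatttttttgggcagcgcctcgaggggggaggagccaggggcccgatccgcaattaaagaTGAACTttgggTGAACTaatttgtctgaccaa
Bco1, chr8:117095615-117095864, plus strand: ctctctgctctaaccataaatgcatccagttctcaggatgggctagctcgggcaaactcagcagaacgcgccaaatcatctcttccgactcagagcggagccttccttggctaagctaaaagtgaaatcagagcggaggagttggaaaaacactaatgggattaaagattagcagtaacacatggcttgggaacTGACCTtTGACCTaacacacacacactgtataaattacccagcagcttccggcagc
Rdh16, chr10:127800903-127801152, plus strand: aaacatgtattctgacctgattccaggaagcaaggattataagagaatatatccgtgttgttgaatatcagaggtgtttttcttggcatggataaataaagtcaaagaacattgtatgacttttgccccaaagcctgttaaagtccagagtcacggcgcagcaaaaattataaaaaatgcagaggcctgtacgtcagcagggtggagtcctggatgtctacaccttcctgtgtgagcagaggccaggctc

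The Cyp26a1 window held a repeat spaced by 5 bases, 32 to 16 bases before the start site, which reads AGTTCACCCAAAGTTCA on the other strand. A repeat with that spacing was found in 11 of 32851 promoter entries (0.0335%). The Bco1 window held a repeat spaced by 1 base, 56 to 44 bases before the start site, which reads AGGTCAAAGGTCA on the other strand and occurred with that spacing in 22 entries (0.067%). A spacing of 2 was found in 12 entries (0.0365%) and in no member. The Rdh16 window held 1 such unit and no repeat, which says only that these letters are not in this window. Aldh1a1 had 2 promoter entries, one before the start of the gene given above and one inside it (chr19:20601718-20601967). The second of them shared an unbroken run of 65 bases with the promoter of the paralog Aldh1a7, which began 94 bases before the start site in both, and the first did not hold it. It is printed because the values of the genes are compared further on:
Aldh1a1 at chr19:20601874-20601938 and Aldh1a7 at chr19:20727586-20727650 (read on its minus strand): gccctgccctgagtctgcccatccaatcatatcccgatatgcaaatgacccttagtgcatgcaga

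In the control mice, Aldh1a1 was by far the most abundant member, with a mean value of 402 ± 76.9 (SD, n = 14). Dhrs3 (62.5 ± 24.9), Aldh1a7 (60.2 ± 10.7) and Rdh16 (56.9 ± 11.2) came next and did not differ beyond their spread. Rdh11 (12.1 ± 5.36), Cyp26a1 (10.2 ± 12.4) and Rdh10 (9.66 ± 1.29) overlapped as well, Lrat was lower at 5.91 ± 1.25, and Bco1 was near the lowest value that the table resolves at 1.58 ± 0.467. TPM divides by transcript length, which a 3′ library does not need, so that this order of levels between genes is approximate.

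The question of the comparison was whether a dose changed these genes. Rdh16 was upregulated at the high dose. By the test used here it was the single member that was a differentially expressed gene (DEG) against control at any dose. DEGs were defined by 2 limits, an adjusted p below 0.05 and a log2FC (log2 fold change) above 0.5 or below -0.5, in limma on log2(value + 1) with Benjamini-Hochberg adjustment over 11431 tested rows. At the low dose 0 of 9 members were DEGs, where 0.367% of all tested rows were. At the middle dose 0 of 9 members were DEGs (all rows 3.72%), and at the high dose 1 of 9 was (all rows 0.840%). At an unadjusted p under 0.05, with no threshold on the log2FC, there were 2, 0 and 2 members at these doses, beside 12.3%, 27.0% and 14.0% of all rows. With the adjusted p alone the count of members stayed at 0, 0 and 1, beside 1.20%, 14.2% and 2.17% of all rows. In the moderated F test over the 4 groups, 1 of 9 members had an adjusted p under 0.05, beside 26.7% of all rows. The median size of the log2FC over the 9 members was 0.11, 0.17 and 0.19 at the low, middle and high dose, beside 0.11, 0.16 and 0.11 over all rows. These comparisons share the control mice.

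**Figure D1:**
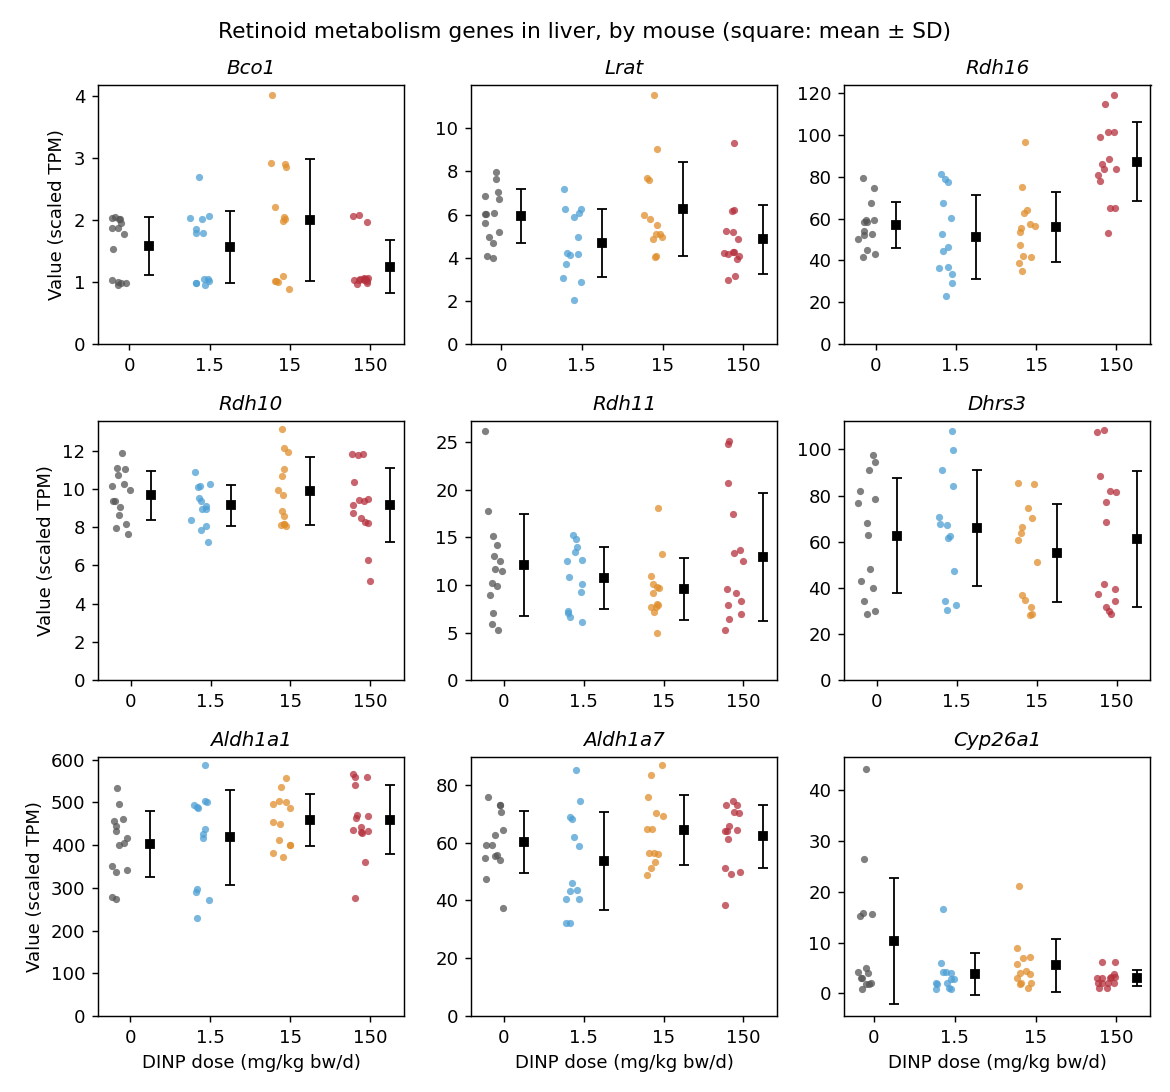
Value of each member (scaled TPM, linear axis) against DINP dose, with 1 point a mouse and the mean ± SD of each group as a black square. The 14 mice at the high dose stand between 53.3 and 119 for Rdh16, against 41.6 to 79.6 in control mice, and the Cyp26a1 axis extends below 0 because the SD of the control mice exceeds their mean.

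Bco1 encodes the enzyme that cleaves beta-carotene into retinal. Its values were quantized, since the rounded TPM was 1 or 2 in most mice: the lowest, median and highest values were 0.960, 1.82 and 2.04 in control mice, 0.953, 1.79 and 2.68 at the low dose, 0.886, 2.01 and 4.01 at the middle dose and 0.970, 1.05 and 2.09 at the high dose. The rounded TPM was 1 in 5 of 14 control mice and in 11 of 14 mice at the high dose, and the ranges of all groups overlapped. The log2FC against control was -0.02, 0.17 and -0.19 at the rising doses, and none passed the test (adjusted p = 0.969, 0.424 and 0.526). The middle-dose value was 0.10 without middle-dose replicate 5 and ran from 0.08 to 0.23 at pseudocounts of 5 and 0.1. At the high dose it was -0.31 with a pseudocount of 0.1 and -0.07 with a pseudocount of 5. Between the middle and high dose the log2FC was -0.37 ± 0.13 (SE, limma adjusted p = 0.0406), short of the DEG threshold. The value depended on the pseudocount, with -0.54 at a pseudocount of 0.1, which is beyond 0.5 in size, and -0.15 at a pseudocount of 5. The adjusted p was 0.05 or more in 5 of 10 other settings (up to 0.302 in the exact Wilcoxon rank-sum test). It was also 0.05 or more in 18 of 27 fits without 1 mouse, those without middle-dose replicate 1, 2, 3, 5, 8, 9 or 11 or high-dose replicate 2, 3, 4, 6, 7, 9, 10, 11, 12, 13 or 14 (up to 0.103 without middle-dose replicate 5).

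Lrat encodes lecithin retinol acyltransferase, which makes the retinyl esters of stellate cells. Its lowest, median and highest values were 3.97, 6.03 and 7.95 in control mice, 2.02, 4.20 and 7.17 at the low dose, 4.03, 5.53 and 11.5 at the middle dose and 2.96, 4.26 and 9.32 at the high dose. The groups overlapped, with 4 of 13 mice at the low dose and 3 of 14 at the high dose below the lowest control mouse. The log2FC was -0.32 ± 0.14 (SE), 0.04 ± 0.14 and -0.26 ± 0.13 at the rising doses and did not pass the test (limma adjusted p = 0.302, 0.892 and 0.381). With a pseudocount of 5 it was -0.18 at the low dose and -0.15 at the high dose. The F test gave an adjusted p of 0.0749. It was under 0.05 in 4 of 54 leave-one-out fits (from 0.0305 to 0.0497; replicate 9 of the low-dose, replicates 10 and 12 of the middle-dose and replicate 12 of the high-dose group). The list of 17 stellate cell markers, which holds Lrat, had a summed value of 255 to 557 in control mice (median 334), of 292 to 469 at the low dose (median 341), of 281 to 551 at the middle dose (median 319) and of 253 to 375 at the high dose (median 309). Of its 13 tested genes 6 were higher and 7 lower at the low and at the middle dose, and 4 higher and 9 lower at the high dose, none with an adjusted p under 0.05, and Pdgfrb and Ngfr had a median of 0. The part of stellate cell content in the Lrat values was not tested.

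Rdh16 encodes a retinol dehydrogenase of the endoplasmic reticulum that oxidizes retinol to retinal. Its lowest, median and highest values were 41.6, 56.2 and 79.6 in control mice, 22.9, 46.3 and 81.4 at the low dose, 34.8, 55.6 and 96.5 at the middle dose and 53.3, 84.8 and 119 at the high dose. At the high dose 13 of 14 mice lay above the control median and 10 above the highest control mouse, while the low and middle dose groups reached beyond the control range on both sides, with 5 of 13 low-dose mice below the lowest control mouse. The means were 56.9 ± 11.2 in control (SD, n = 14), 51.3 ± 20.0 at the low dose (n = 13), 55.9 ± 16.7 at the middle dose (n = 13) and 87.1 ± 18.8 at the high dose (n = 14).

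Against control, Rdh16 was 1.51-fold higher at the high dose (log2FC 0.60 ± 0.15 (SE), limma adjusted p = 0.0179). The log2FC was -0.22 at the low dose (adjusted p = 0.583) and -0.05 at the middle dose (adjusted p = 0.864). The dose groups were also compared directly: Rdh16 was 1.77-fold higher at the high than at the low dose (log2FC 0.82 ± 0.15, adjusted p = 0.000428) and 1.57-fold higher than at the middle dose (log2FC 0.65 ± 0.15, adjusted p = 0.00145). The F test over the 4 groups gave an adjusted p of 0.000199. In these direct contrasts 1 of 9 members was a DEG between the high and low dose (1.64% of all rows) and 1 of 9 between the high and middle dose (6.73% of all rows), Rdh16 in both. Between the middle and low dose 0 of 9 members were DEGs (7.15% of all rows). By the adjusted p alone the counts were 1, 2 (Rdh16 and Bco1) and 0, beside 4.61%, 20.0% and 21.4% of all rows. Between the middle and low dose the limma adjusted p was 0.0587 for Lrat (log2FC 0.36) and 0.0730 for Aldh1a7 (log2FC 0.30). It fell to 0.0423 for Lrat in the other settings, and without 1 mouse to 0.0332 for Lrat and 0.0257 for Aldh1a7. For Lrat between the high and middle dose (log2FC -0.30) it was 0.117, and 0.0449 at the lowest without 1 mouse.

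The call against control was lost with the values before scaling between mice, which gave a log2FC of 0.50 (adjusted p = 0.0661) and at which the median of all rows moved to -0.09. It held in all 28 fits with 1 control or 1 high-dose mouse removed (log2FC 0.56 to 0.65, adjusted p 0.00836 to 0.0343). Markers of pericentral hepatocytes were read beside it: 8 of the 10 listed were higher at the high dose, with a median log2FC of 0.30, and 1 had an adjusted p under 0.05, in the lower direction. Their summed value was 1352 to 4582 in control mice (median 3518) and 2678 to 5289 at the high dose (median 3930). At the middle dose 8 of the 10 were higher as well (median log2FC 0.21), and between the high and middle dose 5 were higher and 5 lower (median 0.00074), the contrast in which Rdh16 had a log2FC of 0.65. Of the 8 periportal markers listed, 8 were lower at the high than at the middle dose (median log2FC -0.26), 3 with an adjusted p under 0.05, and against control 2 were higher and 6 lower at the high dose (median -0.10), none with an adjusted p under 0.05. Their summed value was 1238 to 2225 at the high dose (median 1828) and 1795 to 2667 at the middle dose (median 2366). The part of the pericentral and periportal markers in the Rdh16 results was not tested. Of the 2 adipocyte markers tested, Cfd was higher at the high dose (median 4.99 in control mice and 23.1 at the high dose, log2FC 2.07 ± 0.44 (SE), limma adjusted p = 0.00335), and Fabp4 had a log2FC of -0.68 (adjusted p = 0.146). The part of the adipocyte markers was not tested either.

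Rdh10, the retinol dehydrogenase required for retinoic acid synthesis in the embryo, had the smallest SD of log2(value + 1) of the members when pooled within the groups (0.22). At the high dose its SD was 0.30, above those of Bco1 (0.25), Aldh1a7 (0.28) and Aldh1a1 (0.28), and at the middle dose it was 0.23, above that of Aldh1a1 (0.19). Its lowest, median and highest values were 7.64, 9.64 and 11.9 in control mice and 5.18, 9.28 and 11.9 at the high dose, and the medians at the low and middle dose were 9.10 and 9.67. The groups overlapped, and the log2FC against control stayed between -0.08 and 0.02 (adjusted p from 0.715 to 0.898).

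Rdh11 and Dhrs3 encode enzymes that mainly reduce retinal back to retinol. The lowest, median and highest values of Rdh11 were 5.30, 11.6 and 26.2 in control mice, 6.09, 10.8 and 15.2 at the low dose, 4.97, 9.19 and 18.1 at the middle dose and 5.23, 11.0 and 25.1 at the high dose. At the middle dose 11 of 13 mice lay below the control median, within the control range for all but 1 of them, and the log2FC was -0.26 ± 0.20 (adjusted p = 0.425). The lowest, median and highest values of Dhrs3 were 28.7, 65.4 and 97.7 in control mice, 30.2, 67.4 and 108 at the low dose, 28.2, 60.8 and 85.5 at the middle dose and 28.7, 55.1 and 108 at the high dose. The groups of both genes overlapped almost fully. Dhrs3 had log2FC values of 0.08, -0.17 and -0.07 at the rising doses (adjusted p from 0.699 to 0.934), and those of Rdh11 at the low and high dose were -0.11 and 0.05 (adjusted p = 0.893 and 0.951).

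Aldh1a1 encodes an aldehyde dehydrogenase that oxidizes retinal to retinoic acid. Its lowest, median and highest values were 275, 411 and 533 in control mice, 230.5, 438 and 588 at the low dose, 373, 454 and 558 at the middle dose and 276, 452 and 567 at the high dose. At the high dose 12 of 14 mice lay above the control median, but the ranges overlapped, and the log2FC of 0.20 ± 0.11 did not pass the test (adjusted p = 0.446). At the low and middle dose it was 0.03 and 0.20 (adjusted p = 0.953 and 0.258). With unscaled values the high-dose log2FC was 0.10, and with quantile normalization the middle-dose log2FC was 0.11.

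Aldh1a7, its rodent paralog, had lowest, median and highest values of 37.5, 59.2 and 75.7 in control mice, 32.3, 46.2 and 85.0 at the low dose, 48.7, 64.7 and 86.8 at the middle dose and 38.5, 64.2 and 74.5 at the high dose. The groups overlapped, and the log2FC was -0.21, 0.10 and 0.05 at the rising doses (adjusted p = 0.499, 0.660 and 0.916). Aldh1a1 and Aldh1a7 had a correlation of r = 0.19 between mice (adjusted p = 0.389 in a permutation test over 36 pairs).

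Cyp26a1 encodes the cytochrome P450 that hydroxylates retinoic acid, and it is itself a textbook target of the retinoic acid receptors. Its lowest, median and highest values were 0.935, 4.09 and 44.2 in control mice, 0.894, 2.79 and 16.7 at the low dose, 1.11, 4.07 and 21.1 at the middle dose and 1.03, 3.01 and 6.27 at the high dose. In the control group 5 of 14 mice stood apart at 15.2 or more, with the next at 5.04, whereas no mouse at the high dose was above 6.27. There 12 of 14 mice lay below the control median, and all lay within the control range. The means were 10.2 ± 12.4 in control and 3.01 ± 1.59 at the high dose (SD, n = 14 each), and 3.80 ± 4.16 and 5.56 ± 5.22 at the low and middle dose (n = 13 each).

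The log2FC of Cyp26a1 against control was -0.85 ± 0.37 (SE), -0.39 ± 0.37 and -0.90 ± 0.36 at the rising doses, the largest in size of the members and with the largest error. None passed the test (limma adjusted p = 0.303, 0.529 and 0.210). The unadjusted p was 0.0243, 0.292 and 0.0154. When 1 mouse was left out at a time the log2FC ran from -1.04 to -0.65 at the low, from -0.56 to -0.19 at the middle and from -1.05 to -0.70 at the high dose (adjusted p 0.183 to 0.446, 0.352 to 0.786 and 0.128 to 0.344), with the smallest size at each dose without replicate 13 of the control group. At the middle dose it was -0.24 without control replicate 9 and -0.19 without control replicate 13, and without control replicate 4, 9 or 13 it was smaller in size than that of Rdh11. With a pseudocount of 5 the low-dose value was -0.56. The spread between mice differed as well: the SD of log2(value + 1) was 1.40 in control mice, 0.89 and 0.91 at the low and middle dose and 0.55 at the high dose. The ratio of the SD in control to that at the high dose was 2.56, and 90 of the 11431 rows had a higher one. The median ratio over all rows was 0.975, and the difference in spread was not tested.

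**Figure D2:**
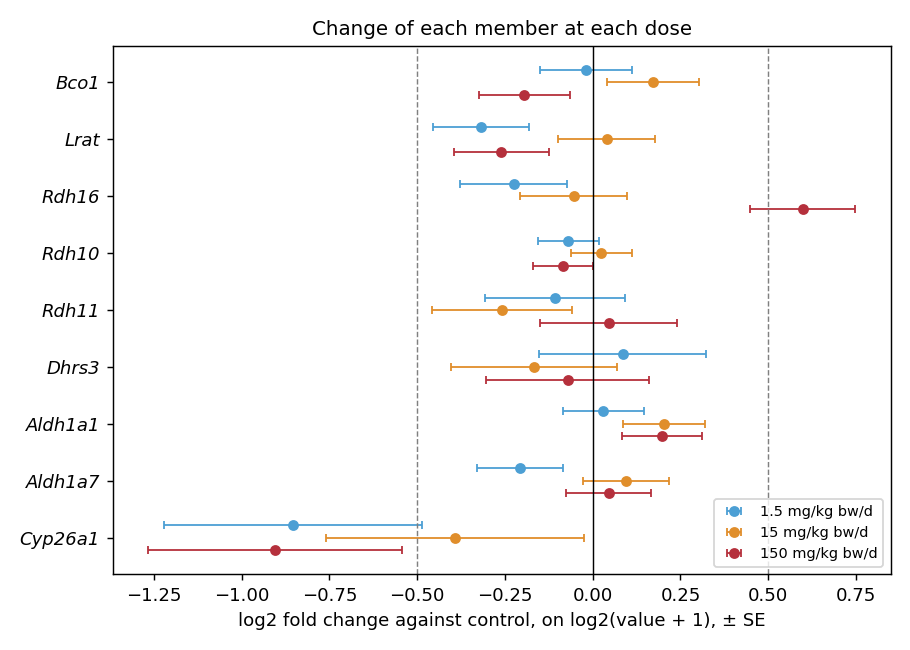
log2FC of each member against control (x axis, on log2(value + 1), dashed lines at -0.5 and 0.5), with 1 point a dose and its standard error as the bar. Rdh16 at the high dose is the point beyond the threshold that passed the test, and the 3 Cyp26a1 points have the widest bars.

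Cyp26b1, which hydroxylates retinoic acid as well, had the highest Pearson's r with Cyp26a1 of the tested genes (r = 0.57 for the deviations of log2(value + 1) from the group means, over 54 mice, given as a description). Within the groups r was 0.69 in control and 0.64, 0.14 and 0.67 at the rising doses, and without the 2 mice farthest from the median of Cyp26a1 it was 0.41. It did not rank first by the other measures: without those 2 mice r was 0.43 for Fam47e and 0.46 for Tanc2, and rho over all mice was 0.44 for Cyp26b1, 0.52 for Fam47e and 0.53 for Tanc2. The lowest, median and highest values of Cyp26b1 were 0.935, 4.44 and 35.1 in control mice, 0, 2.86 and 20.6 at the low, 0.886, 3.02 and 6.02 at the middle and 1.03, 4.15 and 12.4 at the high dose. The mouse with the highest Cyp26a1 value was also the mouse with the highest Cyp26b1 value. The log2FC of Cyp26b1 was -0.68, -0.95 and -0.44 at the rising doses and did not pass the test (adjusted p = 0.433, 0.0634 and 0.625). Rarb, a receptor for retinoic acid that is also a textbook target of it, had a median of 1.01 to 1.79 in the groups and an r of 0.40 with Cyp26a1. Within the groups this r was 0.73 in control and 0.07, 0.03 and 0.56 at the rising doses. Over all groups, r with Rarb was 0.33 without the 2 mice farthest from the median of Cyp26a1, and rho was 0.31. The Rarb medians were near the lowest value that the table resolves, so that these correlations are limited by the rounding of TPM.

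**Figure D3:**
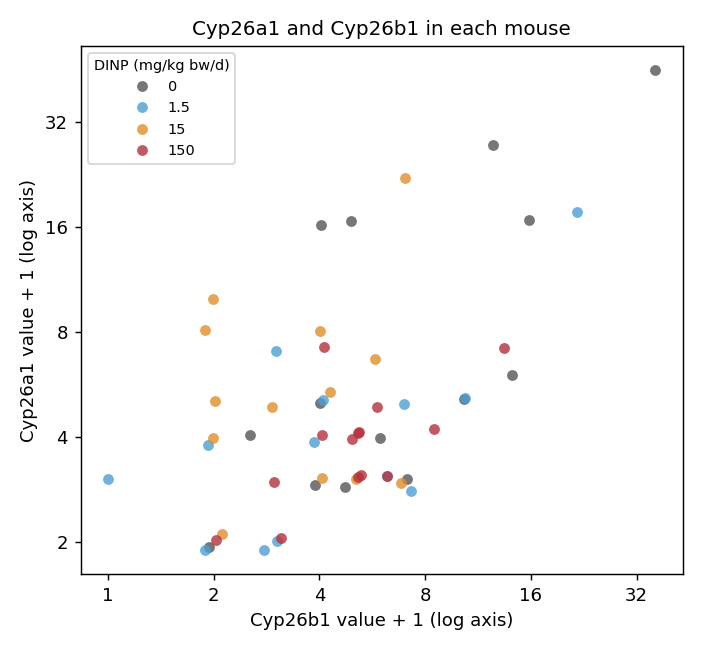
Cyp26a1 against Cyp26b1 (value + 1, both axes log2), with 1 point a mouse, coloured by dose. The highest values of both genes are in control mice, 44.2 for Cyp26a1 and 35.1 for Cyp26b1, and the mice at the high dose end at 6.27 for Cyp26a1.

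How the members varied together between mice was examined for the 36 pairs, on deviations from the group means. By Pearson's r, 2 pairs had an adjusted p under 0.05 in a 2-sided permutation test with 100000 resamples, both with Rdh16. Rdh16 and Aldh1a7 had r = 0.64 and rho = 0.65 (adjusted p = 0.00036 each, permutation test), with r = 0.65 without the 2 mice farthest from the median of Rdh16. Within the control, low, middle and high dose groups r was 0.46, 0.88, 0.43 and 0.38. Rdh16 and Rdh11 had r = 0.53 and rho = 0.53 (adjusted p = 0.00036 each, permutation test), r = 0.53 without 2 mice, and 0.63, 0.43, 0.37 and 0.87 within the groups. By rho alone, Rdh11 with Lrat (0.38, adjusted p = 0.0490) and Rdh10 with Aldh1a1 (0.40, adjusted p = 0.0328) also passed the permutation test, while their r did not (adjusted p = 0.0813 each). Cyp26a1 had no pair that passed. Its r with Rdh16 was -0.71 in control mice and -0.56, 0.38 and 0.24 at the rising doses, and the difference between the groups was not tested.

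**Figure D4:**
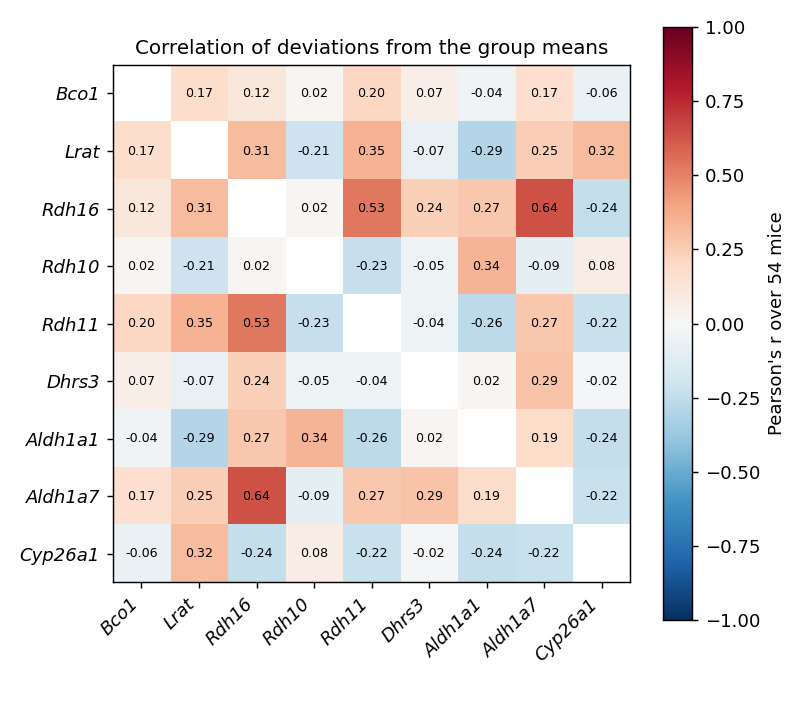
Pearson's r between members over 54 mice, from the deviations of log2(value + 1) from the group means (colour from -1 to 1, value in each cell, diagonal left blank). The darkest cells are Rdh16 with Aldh1a7 (0.64) and Rdh16 with Rdh11 (0.53).

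The tested genes most like each member were ranked by the same r over 54 mice. For Rdh16 they were Elovl5 (0.85), a fatty acid elongase, Gm32468 (0.79) and Pex11a (0.77), a factor of peroxisome division. Pex11a was a DEG at the high dose too (log2FC 0.86, limma adjusted p = 0.00259), while Elovl5 had a log2FC of -0.21 (adjusted p = 0.750). For Rdh11 they were Sc5d (0.90), Acss2 (0.89) and Dhcr7 (0.87), of which Sc5d and Dhcr7 encode enzymes of cholesterol synthesis and Acss2 makes acetyl-CoA from acetate. For Aldh1a7 they were Gstm2 (0.82), a glutathione transferase, and the acute-phase genes Saa1 (0.78) and Saa2 (0.77). For Lrat they were Timp3 (0.70), Pcdh17 (0.68) and Sirpa (0.67), and for Aldh1a1 Gm4952 (0.66), Ildr2 (0.65) and Cyp2b9 (0.65). For Aldh1a1 the r differed in size between the groups: it was 0.46, 0.94, 0.54 and 0.33 for Gm4952 in control and at the rising doses, 0.89, 0.79, 0.48 and 0.06 for Ildr2 and 0.78, 0.82, 0.68 and 0.01 for Cyp2b9, and the difference was not tested. For the genes named with Rdh16, Rdh11, Aldh1a7 and Lrat the lowest r within a group was 0.52, 0.68, 0.60 and 0.55. The remaining members had no gene above 0.60: Cyp26a1 was followed, after Cyp26b1, by Fam47e (0.50) and Tanc2 (0.47), Rdh10 by Gnpda1 (0.59), Lin52 (0.56) and Galm (0.56), Bco1 by Krcc1 (0.51), Tatdn1 (0.50) and Rwdd3 (0.50), and Dhrs3 by Snord38a (0.50), Lclat1 (0.50) and Hps1 (0.47). Within a group the lowest r of these genes were -0.11 (Galm with Rdh10, low dose), -0.10 (Tatdn1 with Bco1, control) and -0.06 (Rwdd3 with Bco1, low dose). Snord38a with Dhrs3 had no defined r at the low dose.

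The members were set beside other genes of the pathway, from lists of 65 genes of which 53 were in the table and 43 were tested. At the low and at the high dose 0 of the 43 had an adjusted p under 0.05. At the middle dose, where no member passed, 12 did, which is 27.9% beside 14.2% of all rows. Of these 10 were higher (7.57% of all rows were called in that direction) and 2 were lower (6.61%). By both limits 4 of the 43 were DEGs, beside 3.72% of all rows. The median log2FC over the 43 genes was 0.01, 0.09 and 0.03 at the rising doses, beside 0.00279, -0.00101 and -0.00809 over all rows. Markers of periportal hepatocytes were read beside the list at the middle dose: 8 of the 8 listed were higher (median log2FC 0.28). Of them 1 had an adjusted p under 0.05, Hsd17b13, which both lists hold. Their summed value was 1381 to 2590 in control mice (median 1905) and 1795 to 2667 at the middle dose (median 2366). Of the 10 pericentral markers 8 were higher as well at this dose (median log2FC 0.21), and 0 had an adjusted p under 0.05. The part of either marker list in the values of the retinoid genes was not tested.

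Among binding proteins 1 of 5 tested passed at the middle dose, Ttr, which carries the retinol binding protein in plasma (log2FC 0.42, adjusted p = 0.0231). Among genes of retinyl ester synthesis and hydrolysis 4 of 9 passed. The carboxylesterases Ces1d (0.63, adjusted p = 0.0118) and Ces1f (0.39, adjusted p = 0.00406) and the lipid droplet enzyme Hsd17b13 (0.39, adjusted p = 0.0278) were higher, and the lysosomal acid lipase Lipa was lower (-0.71, adjusted p = 0.00845). Among genes of retinol oxidation and retinal reduction 3 of 13 passed, Rdh14 (0.37, adjusted p = 0.00696) and the alcohol dehydrogenases Adh4 (0.56, adjusted p = 0.0140) and Adh5 (0.47, adjusted p = 0.000133). Aldh8a1, an aldehyde dehydrogenase, was higher (0.52, adjusted p = 7.25e-05) as 1 of 3 genes of retinal oxidation. Of the 6 receptors Rxra was higher (0.43, adjusted p = 8.11e-05) and Rxrb lower (-0.42, adjusted p = 0.00196), and of 3 genes that respond to retinoic acid Rarres2 was higher (0.30, adjusted p = 0.00278). None of the 3 tested genes of retinoic acid clearance passed, nor did Bco2, the other carotenoid cleaving enzyme. In the exact Wilcoxon rank-sum test the adjusted p was 0.05 or more for Ces1d (0.141), Ces1f (0.0682), Lipa (0.0682), Hsd17b13 (0.0762) and Ttr (0.0509). Ttr had an adjusted p of 0.05 or more in 5 of the other settings, the rank-sum test included, and also without replicate 6 or 8 of the middle-dose group (0.0502 and 0.0509), and Hsd17b13 in 4 of them and without control replicate 7 (0.0518) or middle-dose replicate 5 or 7 (0.0757 and 0.0505). With quantile normalization the log2FC of Ttr was 0.10 (adjusted p = 0.605).

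**Figure D5:**
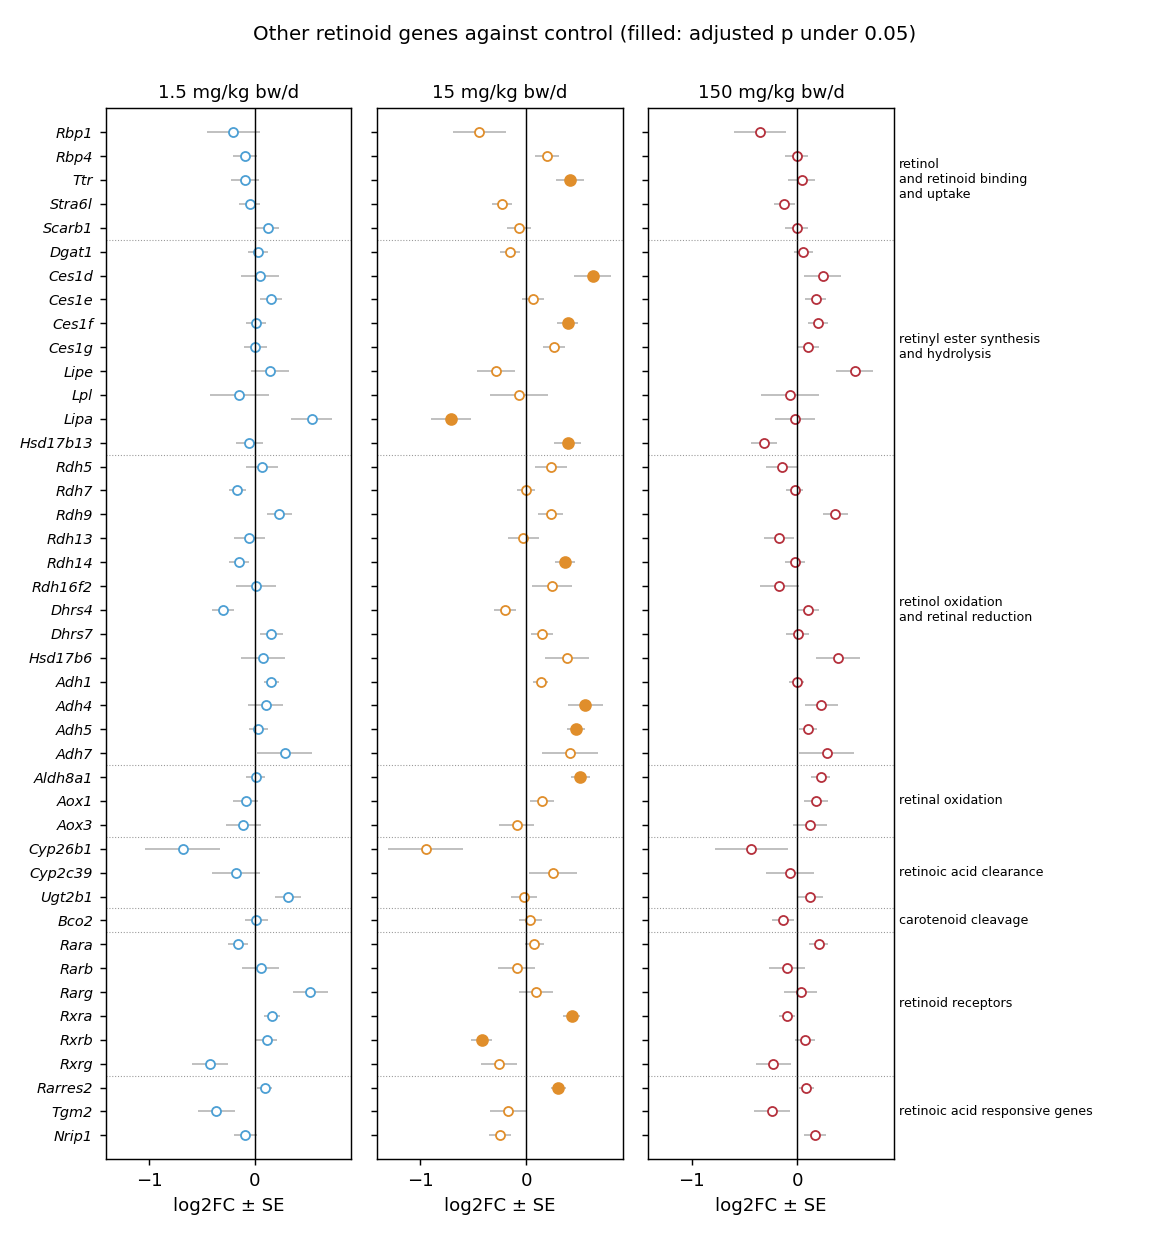
log2FC ± SE against control of the 43 other retinoid genes that were tested, in 1 panel a dose and grouped by role, with filled points for an adjusted p under 0.05. There are 12 filled points, all at the middle dose, and 10 of them are to the right of 0.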

How the data were processed

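Liver RNA of 54 mice was read by the authors with QuantSeq 3′ libraries and processed in the nf-core/rnaseq pipeline, in which STAR, RSEM and Salmon were run against GRCm38; the authors used DESeq2 for their tests. The authors deposited a signal scaled between mice: each value is a whole multiple of a step per mouse (0.764 to 1.11, 100% of values within 0.01), and the whole numbers sum to 948342 to 980641 (coefficient of variation 0.765%). Over the 2617 genes with a control mean of 2 to 5 the median ratio of variance to mean was 0.304, below that of reads, so the values were taken as rounded TPM and no test for counts was run. Sequencing depth is unknown.

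Rows whose mean reached 1 (11431, 56.7%) were tested with limma 3.58.1 (trend) in R 4.3.3 on log2(value + 1), with 4 groups in 1 model. Groups were compared as independent mice. The script was tested on simulated data.

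The genes named are the members, other retinoid genes with an adjusted p under 0.05 at any dose against control, and the 3 genes most like each member; cell type markers are given as counts and sums. Outside that rule Bco2 is named as the 1 tested gene of its list. Genes that overlap a member or share sequence with Rdh16 or Aldh1a1, and markers with a median of 0, are named too. The values of Rarb, Cfd and Fabp4 and the widest gaps were added after they were seen. The members and lists were chosen with earlier results of these data known. Alternatives were pseudocounts of 0.1 and 5, no filter, a minimum mean of 5, unscaled values, quantile normalization, 2 groups alone, array quality weights, a robust eBayes, a replicate block, an exact rank-sum test, the adjusted p alone and leaving out each mouse. A count model did not apply.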

Additional observations from a re-analysis of the deposited data

How the results depend on the processing

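Of 588 log2FC values of members in the 6 contrasts under the 11 other settings, 1 lost its call, none gained one and 12 changed sign. The lost call is Rdh16 at the high dose with unscaled values, which leaves 0 members called against control. It coincides with a shift of the median of all rows to -0.09. The values that changed sign were all near 0 and never called. With unscaled values they were Rdh11 at the high dose (-0.041), Rdh10 (-0.027) and Lrat (-0.0086) at the middle dose, Aldh1a7 at the high dose (-0.049) and Lrat between the high and low dose (-0.0071). With array quality weights they were Rdh11 (-0.036) and Dhrs3 (0.013) at the high dose, Rdh10 (-0.043) and Lrat (-0.031) at the middle dose, Aldh1a1 at the low dose (-0.00013) and Rdh10 between the high and low dose (0.011), and with quantile normalization Aldh1a1 between the high and middle dose (0.034). The cause was not tested. With a minimum mean of 5 Bco1 has no value. DESeq2 was not run, since the values are not counts. Leaving out 1 mouse at a time changed no call of a member in 1458 values and 40 signs. The ranges that crossed 0 were -0.14 to 0.13 for Cyp26a1, -0.043 to 0.038 for Rdh10 and -0.013 to 0.11 for Lrat between the high and low dose, -0.031 to 0.049 for Aldh1a1 between the high and middle dose, -0.035 to 0.13 for Rdh11 and -0.0045 to 0.096 for Aldh1a7 at the high dose, -0.0090 to 0.046 for Rdh10 and -0.030 to 0.080 for Lrat at the middle dose, and -0.015 to 0.098 for Aldh1a1 and -0.066 to 0.010 for Bco1 at the low dose. The members past the F test numbered 1 to 2 in these fits, Lrat being the second.

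Of the wider list, 4 genes were DEGs at the middle dose, 2 with array quality weights, 2 with the exact Wilcoxon rank-sum test and 12 by the adjusted p alone, and 2 to 5 without 1 mouse (2 without replicate 8 of that group). At the low dose the count was 0, but 1 with array quality weights, and 0 to 1 without 1 mouse (1 without control replicate 8 or 9). At the high dose it was 0, but 1 with only the 2 groups compared. Over all rows the 42 DEGs at the low dose became 23 with a pseudocount of 5, 22 with no filter, 76 with 2 groups alone, 70 with array quality weights, 27 with the replicate block and 137 by the adjusted p alone, and 22 to 59 without 1 mouse (fewer than 28 without control replicate 1 or 12 or low-dose replicate 5, 8 or 12). The 425 at the middle dose became 190 with a pseudocount of 5, 218 with weights, 243 with the rank-sum test and 1621 by the adjusted p alone, and the 96 at the high dose 48 with a pseudocount of 5 and 248 by the adjusted p alone. The labels do not say whether mice numbered alike are related, and the deviations of 79 same-number pairs correlated at -0.0025 on average (-0.359 to 0.243). The replicate block changed no call of a member, with Rdh16 at 0.60 (adjusted p = 0.0182) at the high dose. Of the 12 retinoid genes named, Ttr and Hsd17b13 were past the threshold in some settings only (Ttr not with no filter, quantile normalization, weights, the block or the rank-sum test, with adjusted p from 0.0509 to 0.605, and Hsd17b13 not with unscaled values, quantile normalization, 2 groups alone or the rank-sum test, from 0.0505 to 0.124), and Ces1d, Ces1f and Lipa were not past it with the rank-sum test (0.141, 0.0682 and 0.0682). Ranking by Spearman's rho kept 3 of the 3 genes most like Rdh11, 2 for Cyp26a1, Rdh16, Rdh10, Aldh1a7 and Dhrs3, 1 for Bco1 and 0 for Lrat and Aldh1a1. Values near 1, such as those of Bco1, are limited by the rounding of TPM.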

Other observations

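Dhrs3, the retinal reductase, had a highest value 3.03 to 3.77 times the lowest within the groups, and no comparison between groups passed the test. Sorted over all 54 mice, 23 lay at 51.4 or less and 31 at 60.8 or more. The widest gap in the control group ran from 48.3 to 62.7 (6 mice below, 8 above) and at 150 mg/kg bw/d from 41.8 to 68.3 (7 mice on each side). At 15 mg/kg bw/d it ran from 36.7 to 51.4 (5 below, 8 above), and at 1.5 mg/kg bw/d from 34.4 to 47.2 (3 below, 10 above). These gaps were noticed after the values were seen and were not tested, the mice on the sides of the gap were not compared, and the highest r of any tested gene with Dhrs3 was 0.50.

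Aldh1a1 had a gap at 1.5 mg/kg bw/d, with 4 mice at 298.5 or less and 9 at 418 or more, which the other groups did not show at that place. Cyp26a1 exceeded a value of 10 in 5 control mice, 1 mouse each at 1.5 and 15 mg/kg bw/d and none at 150 mg/kg bw/d, and 3 of these 5 control mice also had Cyp26b1 above 10. The limit of 10 was chosen after the values were seen, and no test was made of it.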
